A study of Mus musculus with 23 samples.

Results

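MHC class II presentation was described through 10 genes in CD103+ type 1 conventional dendritic cells (cDC1) that had been sorted from mouse melanomas. The genes were taken by name, and all 10 had a row among the 13572 gene rows of the deposited count table. They were H2-Aa, H2-Ab1, H2-Eb1, Cd74, H2-DMa, H2-DMb1, H2-DMb2, Ciita, Ctss and Ifi30. A first group held cDC1 from tumours of BRAFV600E melanoma cells with a knockout of Ptgs1 and Ptgs2, the genes of the cyclooxygenases that start prostaglandin synthesis. Those tumours are described by the submitters as deficient in prostaglandin E2 (PGE2), and the group is called PtgsKO here. The control group held cDC1 from tumours of control BRAFV600E cells, which produce PGE2. Wild-type C57BL/6 mice received 2000000 cells, and tumours were taken after 6 days. Host cells of all mice kept both Ptgs genes, so the knockout cannot be checked in the sorted cells, and no PGE2 level was used here. Each library came from a pool of 10 cells and was made with Smart-seq3, which reads along whole transcripts from little RNA. Each group had 4 mice, with 11 pools from PtgsKO and 12 from control tumours. PtgsKO mouse 2 had 2 pools and every other mouse had 3. The age of the mice is not given in the sources used here.

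MHC class II molecules present peptides from endosomes to CD4 T cells. Their alpha and beta chains assemble with the invariant chain (Cd74), which is cut away in endosomes so that H2-DM can exchange the remaining fragment for other peptides. Ciita is the coactivator that switches these genes on, acting through factors bound to the X and Y boxes of their promoters. cDC1 are best known for presenting antigen on class I molecules to CD8 T cells, and they carry class II molecules too. C57BL/6 mice have a defective H2-Ea gene, so that the H2-Eb1 chain has no partner to form the I-E molecule, and H2-Aa with H2-Ab1 forms their only classical class II molecule. Class II protein was among the sort criteria (live CD45+, MHC-II+, CD11c+, CD103+, CD11b-), so every sorted cell was chosen for having it. In pools of 10 cells, fewer cells of a type and less RNA per cell cannot be told apart.

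The promoters are shown because class II genes are known to be switched on together through X and Y boxes in such stretches. RefSeq promoter windows (build GRCm38.p6, 250 bases before to 50 after a gene's start) were matched by symbol for 7 of the 10 genes, with no entry for H2-Ab1, Cd74 and Ciita. Each window was searched on both strands for the Y box letters ATTGG with the X box core GNAAC 10 to 40 bases before them. The motifs do not overlap each other, and capitals mark them. H2-Aa lies at chr17:34287862-34287916 on the minus strand, H2-Eb1 at chr17:34305763-34305817 on the plus strand, H2-Ob at chr17:34238803-34238857 on the plus strand and H2-DMb2 at chr17:34145114-34145168 on the plus strand.
H2-Aa: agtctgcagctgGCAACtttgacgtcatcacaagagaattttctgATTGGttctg
H2-Eb1: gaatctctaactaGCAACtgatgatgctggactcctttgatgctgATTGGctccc
H2-Ob: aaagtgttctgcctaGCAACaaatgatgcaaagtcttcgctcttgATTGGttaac
H2-DMb2: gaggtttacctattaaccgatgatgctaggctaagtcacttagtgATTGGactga

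The pair was found on the gene's own strand in 3 of the 7 genes. The gap between X core and Y box was 28 bases in H2-Aa, 27 in H2-Eb1 and 28 in H2-DMb1, whose stretch is annotated as 5′ untranslated in GENCODE and is not printed. Over all 32851 windows the pair on the gene's strand was found in 2.08%, and on either strand in 4.15%. The Y box letters began 48 bases before the start of H2-Aa, 59 before H2-Eb1, 61 before H2-DMb1 and 90 before H2-DMb2. These starts are those of the RefSeq windows. The H2-DMb2 stretch and the H2-DMa windows lie inside the GENCODE spans of their genes given below, not upstream of them. H2-DMb2 held the Y box letters without the X core, as did 1 of the windows of H2-DMa, 198 bases before its start. The Y box letters, with or without an X core, were found on the gene's strand in 19.7% of all windows. The windows of H2-DMa, Ctss and Ifi30 held no pair. Of 4 other genes of the class II region with a window, 3 held it, H2-Oa, H2-Ob and H2-Eb2, with gaps of 28, 25 and 27 bases, and Btnl2 did not. These are matches of letters and not mapped sites.

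The pools held 25571 to 98554 counts (median 49506), and the summed pools of a mouse held 101017 to 230478 in PtgsKO and 113263 to 155070 in control mice. The 12 cDC1 markers were all detected in both groups, with 169 to 335 counts per PtgsKO pool and 64 to 183 per control pool. Summed counts of markers of other cells, not scaled for depth, differed between the groups too. Macrophage markers had 31 counts in PtgsKO and 236 in control pools (9 of 9 detected in controls, C1qb at 0 in PtgsKO, ranges 0 to 11 and 0 to 114 per pool). A pool of control mouse 2 and a pool of control mouse 4 held 114 each, and the median per pool was 1 in both groups. Within this list Fcgr1 had 11 and 8 counts in PtgsKO and control pools, and Ms4a7 had 5 and 5. Plasmacytoid dendritic cell markers had 1 and 108 counts (4 of 5 at 0 in PtgsKO). T cell markers had 61 counts in PtgsKO pools and 12 in control pools, and cDC2 markers had 40 and 154. The monocyte markers analysed, Ly6c2 and Ccr2, had 168 counts in PtgsKO and 98 in control pools, of which Ly6c2 had 50 and 48. Of the B cell markers only Cd79b was analysed, at 0 in both groups. Macrophages, B cells and other dendritic cells also express class II genes. Pools with 10 or more counts of macrophage, plasmacytoid, T or B cell markers numbered 5 of 11 in PtgsKO and 6 of 12 in controls, and results are also given without them.

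The class II family was among the most abundant RNA of these cells in both groups. The 10 genes made up 2.21% ± 0.162 of all counts in PtgsKO mice and 2.45% ± 0.181 in control mice (mean ± SD, n = 4 each), and the groups overlapped. Most of this came from the chains and the invariant chain: H2-Aa, H2-Ab1, H2-Eb1 and Cd74 held 1.97% ± 0.154 in PtgsKO and 2.15% ± 0.141 in control mice. By mean level over the 8 mice, Cd74 had rank 7 among all gene rows, H2-Aa rank 10, H2-Ab1 rank 13 and H2-Eb1 rank 27. H2-DMb2, the lowest of the 10 in CPM, had rank 1311. No pool was at 0 for any of the 10 genes.

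Levels between genes were compared as CPM (counts scaled to a total of 1000000) per kilobase of transcript (the longest principal isoform of GENCODE M21, or the longest where none is marked), a scale that presumes reads along the whole transcript. In PtgsKO mice the order was Cd74 (6254), H2-Aa (5812), H2-Ab1 (4328), H2-Eb1 (2018), Ctss (699), Ifi30 (479), H2-DMb1 (334), H2-DMa (316), H2-DMb2 (88.3) and Ciita (52.9), each a mean CPM per kilobase over 4 mice. The mice of neighbouring genes overlapped for Cd74 and H2-Aa, for the run from Ctss through Ifi30 and H2-DMb1 to H2-DMa, and for H2-DMb2 and Ciita. In control mice H2-Aa (7040) stood above Cd74 (6816), and these were the only neighbours that overlapped. The rest followed in the same order as H2-Ab1 (4474), H2-Eb1 (2543), Ctss (1146), Ifi30 (643), H2-DMb1 (405), H2-DMa (313), H2-DMb2 (106) and Ciita (49.0).

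**Figure D1:**
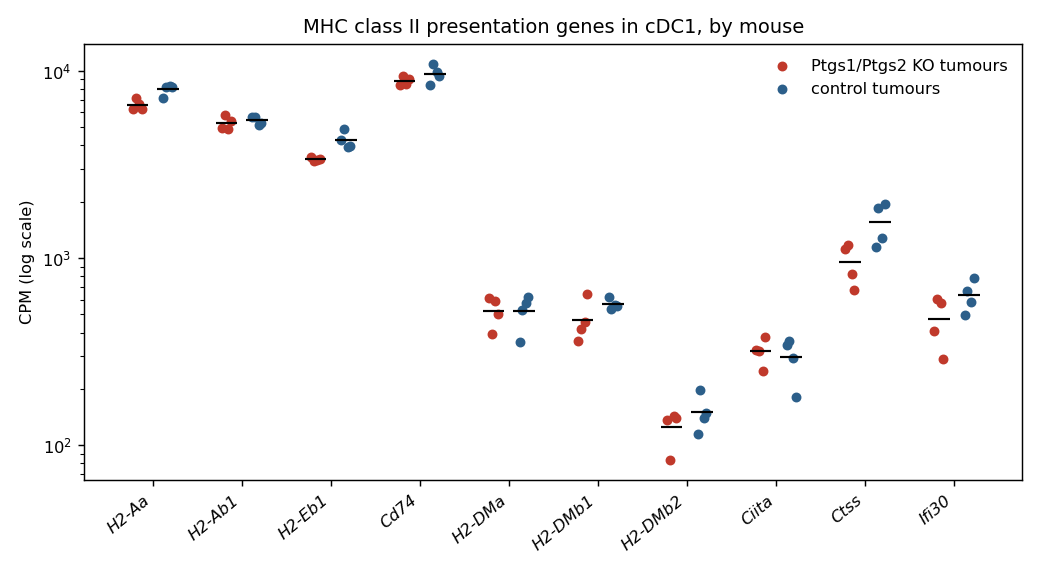
CPM of the 10 genes in each mouse on a log axis, 4 PtgsKO mice (left of each pair) and 4 control mice, with a bar at the group mean. Cd74, H2-Aa, H2-Ab1 and H2-Eb1 lie above the other 6 genes in every mouse. On this TMM scale the 2 groups do not overlap for H2-Aa and H2-Eb1, but by plain totals they overlap for H2-Aa.

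Between the groups, 1 of the 10 genes was called. Ctss, the endosomal protease that trims the invariant chain, was lower in cDC1 from PtgsKO tumours, at 0.602 times its level in controls. Its groups overlapped and the call was close to the threshold (edgeR, adjusted p = 0.0448). It held in 3 of the 8 fits that left out a mouse, and in 12 of all 21 alternatives. The other 9 did not pass the test (edgeR quasi-likelihood test with p adjusted by Benjamini-Hochberg over 2076 genes, threshold 0.05). Among all tested genes 2.26% were lower and 2.7% higher, 4.96% in either direction. The log2 fold change was negative in 8 of the 10, and the median of the 10 was −0.26, beside 0.01 over all tested genes. An unadjusted p under 0.05 was found for 3 of the 10 and for 18.7% of all tested genes. These genes share pools and are not replicates of each other.

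**Figure D2:**
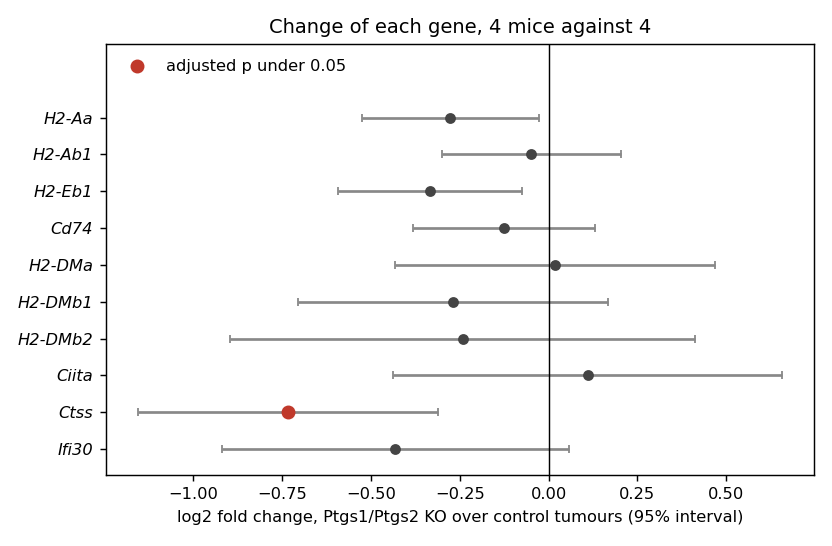
Log2 fold change of each gene, PtgsKO over control, with the 95% interval of the edgeR fit over 4 mice in each group. The interval lies below 0 for H2-Aa, H2-Eb1 and Ctss, and Ctss alone has an adjusted p under 0.05 (red).

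The alpha chain gene H2-Aa had 6237, 7117, 6654 and 6216 CPM in PtgsKO mice 1 to 4, against 7155, 8191, 8290 and 8131 CPM in control mice 1 to 4. The groups did not overlap on this TMM scale, although the highest PtgsKO mouse and the lowest control mouse nearly met. By plain totals they overlapped: PtgsKO mouse 2 had 600 of 79758 tested counts and control mouse 1 had 622 of 92380. Its log2 fold change was −0.28 ± 0.12 (SE, 95% interval −0.53 to −0.03), and it was not called (edgeR, adjusted p = 0.208). H2-Ab1, which encodes the beta chain paired with it, had 4931, 5765, 4893 and 5390 CPM in PtgsKO mice and 5659, 5636, 5149 and 5245 CPM in control mice. These groups overlapped widely, and the log2 fold change was −0.05 ± 0.12 (95% interval −0.30 to 0.20, edgeR, adjusted p = 0.885). Both are protein-coding genes of chromosome 17 (GRCm38, GENCODE M21), H2-Aa at 34282744 to 34287823 on the minus and H2-Ab1 at 34257689 to 34269419 on the plus strand.

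H2-Eb1, the beta chain gene without an I-E partner in this strain, had 3460, 3298, 3332 and 3384 CPM in PtgsKO mice, against 4268, 4861, 3914 and 3936 CPM in control mice. Every PtgsKO mouse was below every control mouse. On the TMM scale, groups were apart in one or the other direction for 2 of the 10 genes and for 10.6% of all tested genes. The log2 fold change was −0.33 ± 0.12 (95% interval −0.59 to −0.07), a fold of 0.794, and it did not pass the adjusted threshold (edgeR, p = 0.0146, adjusted p = 0.132). Cd74, the invariant chain, had 8372, 9395, 8475 and 9030 CPM in PtgsKO mice and 8340, 10867, 9876 and 9361 CPM in control mice. The lowest of all 8 mice was a control, and the log2 fold change of −0.12 ± 0.12 (95% interval −0.38 to 0.13) was not called (edgeR, adjusted p = 0.636). On plus strands, H2-Eb1 spans bases 34305867 to 34316674 of chromosome 17 and Cd74 spans bases 60803848 to 60812652 of chromosome 18.

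Ratios of counts within a mouse do not depend on the scaling between libraries. H2-Eb1 over H2-Ab1 counts was 0.702, 0.572, 0.681 and 0.628 in PtgsKO mice, against 0.754, 0.863, 0.760 and 0.750 in control mice. The groups did not overlap, with a mean of 0.646 ± 0.0581 in PtgsKO and 0.782 ± 0.0540 in control mice (SD, n = 4 each). Without the pools that held markers of other cells, the ratio was 0.743, 0.674, 0.726 and 0.667 in PtgsKO mice and 0.699, 0.802, 0.774 and 0.733 in control mice. There the groups overlapped, and the difference of the means was −0.0492, against −0.136 with all pools. H2-Ab1 over H2-Aa averaged 0.801 ± 0.0544 in PtgsKO and 0.686 ± 0.0751 in control mice, with overlapping groups. H2-DMa over H2-Aa averaged 0.0807 ± 0.0185 in PtgsKO and 0.0648 ± 0.0111 in control mice, and the groups overlapped. For Ctss over Cd74 the means were 0.1075 ± 0.027 and 0.161 ± 0.0356, again with overlap. Only H2-Ab1 over H2-Aa and H2-DMa over H2-Aa were planned, so H2-Eb1 over H2-Ab1 was not a planned ratio.

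**Figure D3:**
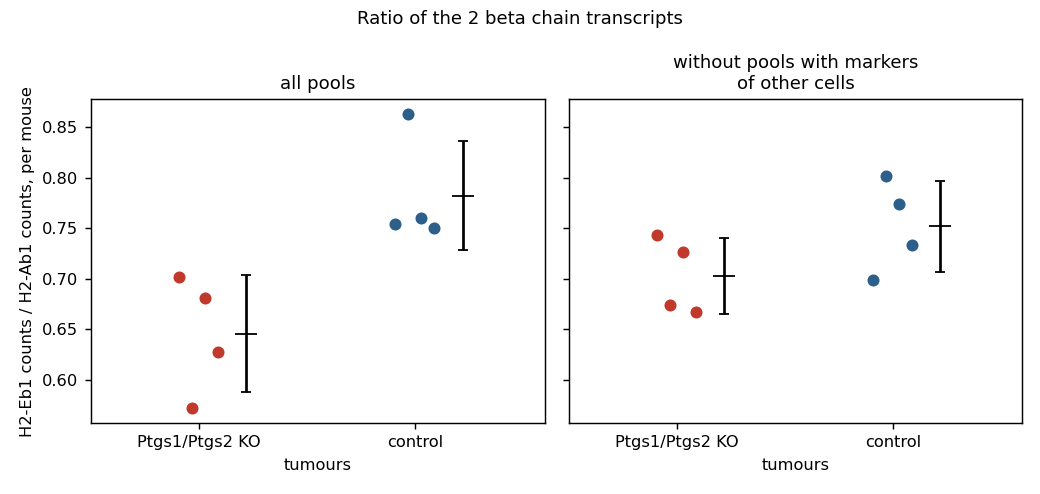
Ratio of H2-Eb1 to H2-Ab1 counts in each mouse, PtgsKO left and control right, with the mean and SD of 4 mice beside the points, from all pools and without pools with markers of other cells (the axis does not start at 0). The groups are apart with all pools (0.572 to 0.702 and 0.750 to 0.863) and overlap without those pools.

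Ciita, the coactivator of class II genes, was not called in either direction. It had 322, 320, 250.03 and 379.7 CPM in PtgsKO mice, and 345, 361, 291 and 180.3 CPM in control mice, so the groups overlapped. The log2 fold change was 0.11 ± 0.26 (edgeR, adjusted p = 0.879), and its 95% interval from −0.44 to 0.66 leaves changes of either sign. Ciita rested on 155 counts in PtgsKO and 124 in control pools. It varied most between pools of PtgsKO tumours, with a coefficient of variation of 58.8% where counting alone gives 28.2%, against 34.3% and 32.02% among control pools. The highest pool, of PtgsKO mouse 4, had 35 counts (709 CPM) and also the most T cell marker counts (29), while the other pools of that mouse had 7 and 4 Ciita counts. Without pools with markers of other cells the log2 fold change was −0.36 (edgeR, adjusted p = 0.703), so its sign turned. The gene spans bases 10480059 to 10528418 of chromosome 16, plus strand.

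Ctss encodes cathepsin S, which cuts the invariant chain down to the fragment that H2-DM removes. It had 1121, 1174, 816 and 677 CPM in PtgsKO mice 1 to 4, against 1150, 1841, 1275 and 1944 CPM in control mice 1 to 4. The groups overlapped through PtgsKO mouse 2 and control mouse 1, and control mice 2 and 4 stood highest. The means were 947 ± 239 and 1553 ± 398 CPM (SD, n = 4 each), with a log2 fold change of −0.73 ± 0.20 (95% interval −1.16 to −0.31, edgeR, adjusted p = 0.0448). The call stood close to the threshold, and the adjusted p ran from 0.00984 to 0.343 over the alternatives. It was lost without PtgsKO mouse 3 or 4 or control mouse 2, 3 or 4, with log2 fold changes of −0.86 to −0.61 over all 8 fits that left out a mouse. The gene spans bases 95526786 to 95556403 of chromosome 3, plus strand.

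By pool, Ctss ran from 498 to 1267 CPM in PtgsKO tumours (median 871) and from 518 to 2484 CPM in control tumours (median 1541). The highest pool, of control mouse 2, had 105 Ctss counts and 114 counts of macrophage markers. The first pool of control mouse 4 also had 114 macrophage marker counts, with 1562 CPM of Ctss. The pools next to the highest in level, also of control mouse 4, had 2183 and 2137 CPM with 3 and 1 macrophage marker counts. They held 25 and 15 cDC2 and 15 and 0 plasmacytoid marker counts. Macrophages are known to express Ctss, and their part in these levels was not tested. Without pools with markers of other cells, Ctss ran from 498 to 1267 CPM in 6 PtgsKO pools (median 869) and from 518 to 2137 CPM in 6 control pools (median 1336). The log2 fold change in these pools was −0.59 and was not called (edgeR, adjusted p = 0.343). The part of the cDC2 and monocyte markers, which this selection does not use, was not tested.

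**Figure D4:**
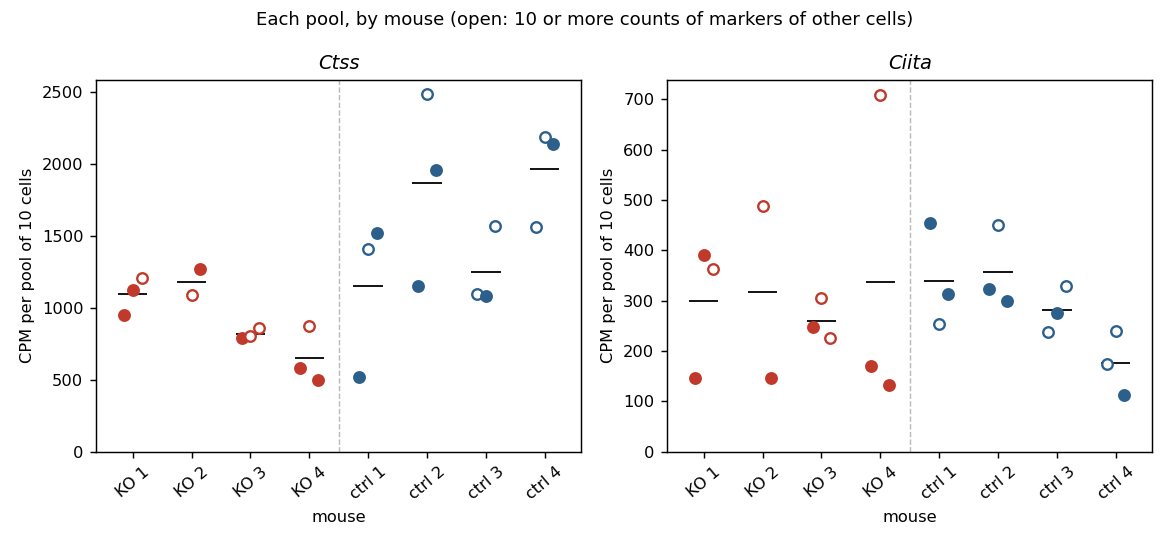
CPM of Ctss and Ciita in each pool of 10 cells, by mouse, PtgsKO mice (KO) left of control mice (ctrl), with a bar at the mean of a mouse's pools. Open circles are pools whose macrophage, plasmacytoid, T and B cell markers summed to 10 or more counts. The highest Ctss pool (2484 CPM) and the highest Ciita pool (709 CPM) are both open.

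Ifi30 encodes GILT, the reductase that opens disulfide bonds of antigens in endosomes. It had 409, 605, 577 and 289 CPM in PtgsKO mice and 495, 663, 582 and 784 CPM in control mice. The groups overlapped, and the log2 fold change of −0.43 ± 0.23 (95% interval −0.92 to 0.06) was not called (edgeR, adjusted p = 0.346). Without pools with markers of other cells it was −0.24 (edgeR, adjusted p = 0.746). The gene spans bases 70762774 to 70766663 of chromosome 8, minus strand, and GENCODE M21 types it as a processed transcript.

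The H2-DM genes encode the peptide exchange factor, with H2-DMa as its alpha chain and H2-DMb1 and H2-DMb2 as alternative beta chains. H2-DMa had 614, 391, 587 and 504 CPM in PtgsKO mice and 357, 525, 572 and 619 CPM in control mice, with a log2 fold change of 0.02 ± 0.22 (95% interval −0.43 to 0.47, edgeR, adjusted p = 0.967). H2-DMb1 had 361, 415, 454 and 644 CPM in PtgsKO mice and 621, 533, 562 and 557 CPM in control mice. In PtgsKO tumours 3 of the 4 mice were below all control mice and the fourth was the highest of the 8. The log2 fold change was −0.27 ± 0.21 (95% interval −0.70 to 0.17, edgeR, adjusted p = 0.544), and −0.62 without pools with markers of other cells (edgeR, adjusted p = 0.322).

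H2-DMb2, with 66 counts in PtgsKO pools and 66 in control pools, was the least sampled of the family. It had 136, 83.0, 143 and 140 CPM in PtgsKO mice and 115, 198, 141 and 149 CPM in control mice. The log2 fold change of −0.24 ± 0.31 was not called, and its interval from −0.90 to 0.41 is the widest of the 10 (edgeR, adjusted p = 0.737). The transcripts of H2-DMb1 and H2-DMb2 have 1404 and 1424 bases, and 93.9% of their aligned bases are identical. Of all 50-base stretches of H2-DMb1, 27.2% occur exactly in H2-DMb2, so counts of this pair are uncertain. H2-DMb2 held 21.5% ± 5.09 of the counts of the pair in PtgsKO and 20.9% ± 4.71 in control mice (SD, n = 4 each). In GRCm38 the DM genes are neighbours on chromosome 17, plus strand, with H2-DMa from 34119541 to 34139101, H2-DMb2 from 34143307 to 34151555 and H2-DMb1 from 34153072 to 34160230.

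Across pools, the levels of the 4 abundant genes varied together, and correlations with the rest of the family were lower. Among H2-Aa, H2-Ab1, H2-Eb1 and Cd74, Spearman correlations of log2(CPM + 1) over the 23 pools, with the group mean removed, were 0.53 to 0.72 for the 6 pairs. The other 39 pairs of the family ran from −0.24 to 0.53 with a median of 0.22. With the summed CPM of the 4 genes, H2-DMb1 had a correlation of 0.55, H2-DMa 0.35, Ifi30 0.31, H2-DMb2 0.24, Ctss 0.12 and Ciita −0.03. The 2066 tested genes outside the family had a median of 0.01, and 95% of them were below 0.47. Values of a pool share its library, its scaling and its mixture of cells, and low counts weaken a correlation, so these are descriptions. The summed CPM itself correlated with the total count of a pool by 0.36, with its number of detected genes by 0.26 and with its share of mitochondrial counts by −0.38.

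**Figure D5:**
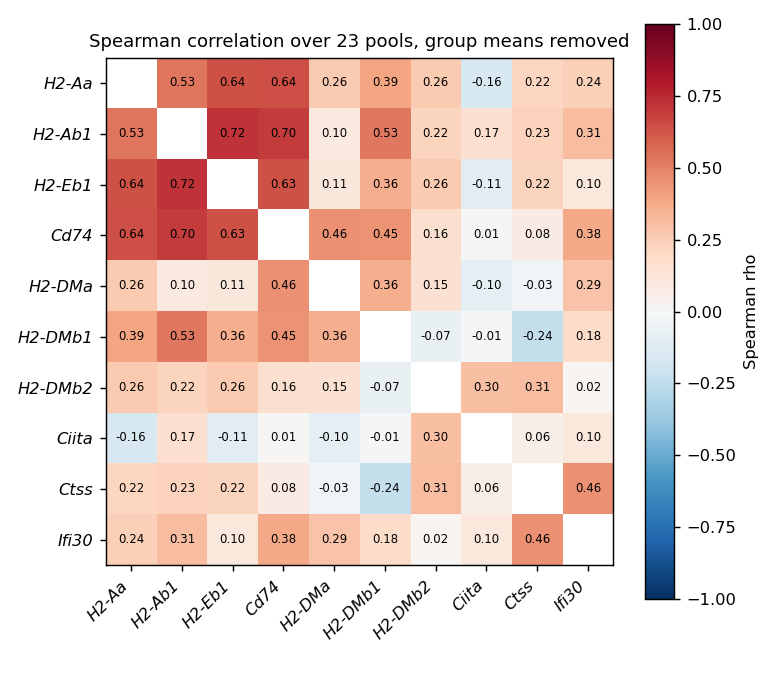
Spearman correlation of each pair of genes over 23 pools, on log2(CPM + 1) with the mean of each group (PtgsKO, control) removed. The block of H2-Aa, H2-Ab1, H2-Eb1 and Cd74 holds 0.53 to 0.72, while Ciita runs from −0.16 to 0.30 with the other genes.

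The 8 tested genes outside the family with the highest correlation to the sum of the 4 were Gm3788 (0.78), Gm10073 (0.77), Rpl19-ps6 (0.76), Gm16335 (0.75), Myl12b (0.74), Rps18-ps3 (0.73), Gm6394 (0.71) and Gm46209 (0.71). GENCODE annotates Gm10073 and Myl12b, a myosin regulatory light chain, as protein-coding and the others as processed pseudogenes. With the mean of each mouse removed in place of the group mean, Rpl19-ps6 had rank 1 and Myl12b rank 34. The summed CPM of the 4 genes ran from 17932 to 31230 in PtgsKO pools (median 23787) and from 20681 to 36675 in control pools (median 25143). The spread of single genes between pools exceeded that from counting for the abundant members: Cd74 varied by 17.5% in PtgsKO and 21.4% in control pools, where counting alone gives 5.24% and 5.60%. For H2-DMb2 it was 40.4% and 45.6%, where counting alone gives 43.9% and 45.02%.

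The other class II genes of the region were scarce. H2-Ob, the beta chain of H2-DO, which restrains H2-DM, had 142 ± 26.7 CPM in PtgsKO and 158 ± 65.2 CPM in control mice and was not called (log2 fold change −0.18, edgeR, adjusted p = 0.841). Its partner H2-Oa had 21 counts in PtgsKO and 36 in control pools, and H2-Eb2 had 17 and 7, too few to test. The expression of H2-Ea, H2-Ea-ps and Btnl2 was not analysed here.

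In the list of endosomal proteolysis, 0 of 7 tested genes (13 listed) were called in either direction by edgeR, and 3 had an unadjusted p under 0.05 in it. Over all tested genes 4.96% were called and 18.7% had such an unadjusted p. The median log2 fold change of the list was 0.16, beside 0.01 over all tested genes. Cst3, the cystatin that inhibits cathepsin S and other cathepsins, had 18869 ± 2637 CPM in PtgsKO and 14110 ± 1161 CPM in control mice (SD, n = 4 each). The groups did not overlap, and the log2 fold change of 0.42 ± 0.13 did not pass the threshold (edgeR, adjusted p = 0.0644). Its adjusted p was 0.013 with limma-voom over pools and 0.0829 with DESeq2, which called 1 and 0 genes of this list. Cst3 was called in 5 of the 21 alternatives. Among them were total count scaling (edgeR, adjusted p = 0.0203) and robust dispersion (edgeR, adjusted p = 0.0139). Sppl2a, the intramembrane protease that clears the last fragment of Cd74, had 203 ± 47.7 CPM in PtgsKO and 113 ± 37.6 CPM in control mice (0.81 ± 0.32, edgeR, adjusted p = 0.151).

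Of the 6 tested genes that act on class II transcription (17 listed), 2 rose, none fell and 4 were not called. The median log2 fold change of the 6 was 0.52, beside 0.01 over all tested genes, of which 2.7% rose and 2.26% fell. Irf8, which is also a cDC1 marker here, had 1510 ± 205 CPM in PtgsKO and 837 ± 296 CPM in control mice (SD, n = 4 each; log2 fold change 0.85 ± 0.21, edgeR, adjusted p = 0.0215). It lost its call without PtgsKO mouse 1 or 4 or control mouse 2 or 4, and from pools 2 and 3 alone. Without pools with markers of other cells Irf8 had a log2 fold change of 0.81 and was not called (edgeR, adjusted p = 0.168), with fewer genes and pools in that fit. The factors that bind the X and Y boxes were too scarce to test: Rfx5 had 8 counts in PtgsKO and 3 in control pools, and Nfya had 23 and 10, values named after they were seen.

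In class II trafficking and turnover, 1 of 10 tested genes (20 listed) fell and none rose, with a median log2 fold change of 0.08. Over all tested genes 2.26% fell and 2.7% rose, with a median of 0.01. Cd53, a tetraspanin of immune cells, had 477 ± 25.3 CPM in PtgsKO and 759 ± 66.4 CPM in control mice (−0.68 ± 0.18, edgeR, adjusted p = 0.0379), and its groups did not overlap. It lost its call in each of the 8 fits that left out a mouse (−0.73 to −0.62). Without pools with markers of other cells it was not called either, with a larger log2 fold change of −1.01 (edgeR, adjusted p = 0.093). The call was also lost with total count scaling, no count filter, the replicate block and pools 2 and 3 alone. March1, the ligase that marks class II molecules for degradation, had a log2 fold change of −0.39 and was not called (edgeR, adjusted p = 0.521; named after its value was seen).

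Over all tested genes 2.7% were higher and 2.26% lower, with a median log2 fold change of 0.01. In class I presentation, set beside the class II genes, 12 of 14 log2 fold changes were positive, with a median of 0.56. There 2 of the 14 tested genes were higher and none lower. These were B2m, the light chain of class I molecules (log2 fold change 0.87, edgeR, adjusted p = 0.0164), and the heavy chain gene H2-K1 (1.07, edgeR, adjusted p = 0.0283). B2m lost its call without control mouse 1 or 2 and had a log2 fold change of 0.56 without PtgsKO mouse 2, and with robust dispersion it was not called (edgeR, adjusted p = 0.136). H2-K1 lost its call without PtgsKO mouse 2 (0.65) or control mouse 2 or 3, and had 1.87 without pools with markers of other cells (edgeR, adjusted p = 0.0245). In the maturation list, 4 of 9 tested genes (16 listed) were higher and none lower, with a median of 1.45. They were Il12b, a subunit of interleukin-12, Cacnb3, a calcium channel subunit, Serpinb6b, a protease inhibitor, and Bcl2l14, of the BCL2 family, with log2 fold changes of 2.86, 1.65, 1.45 and 2.37 (edgeR, adjusted p from 0.0144 to 0.0466). Il12b lost its call without PtgsKO mouse 1 (1.82) or control mouse 3, Cacnb3 held it in 3 and Serpinb6b (0.83 without PtgsKO mouse 2) in 2 of the 8 fits that left out a mouse, and Bcl2l14 held it in all 8. With limma-voom over pools none of the 4 was called (adjusted p from 0.339 to 0.502). Il12b and Serpinb6b were not called with DESeq2 (adjusted p = 0.159 and 0.144) or with robust dispersion (edgeR, adjusted p = 0.26 and 0.222). Serpinb6b also lost its call with a minimum count of 20, from pools 2 and 3 alone and without pools with markers of other cells (log2 fold change 1.59 in the last of these), and Cacnb3 with the replicate block. In control mice 1 to 4, Bcl2l14 had 2, 5, 3 and 10 counts and Il12b had 0, 10, 1 and 17. Cacnb3 had 3, 9, 5 and 12 counts in these mice and Serpinb6b had 13, 30, 9 and 30. A gene scarce in controls can pass the count filter through the PtgsKO mice alone, which favours higher genes. The list was also chosen with earlier results of these data known, so its count and median are descriptions only. Of the 9 tested maturation genes, 7 had a positive log2 fold change. Cd83 had −0.43 (95% interval −0.81 to −0.05, edgeR, adjusted p = 0.203) and Cd86 −0.04 (edgeR, adjusted p = 0.955). Ccr7 had 0.45 (edgeR, adjusted p = 0.489), and none of these was called. The difference between the class I, maturation and class II lists was not tested.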

How the data were processed

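Values are counts, which the authors deposited as whole numbers, not normalized, for every gene and pool. STAR (version 2.5.4b) and the mouse build GRCm38 are named in the submitters' processing notes. Not given in the sources used here are the counting program, the annotation, use of strand, and whether counts are reads or molecules. The submitters describe up to 3 technical replicates of 10 cells per mouse. Nothing here records separate experiments, so p-values measure the spread between mice carrying 1 melanoma line.

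The pools of a mouse were summed. Of 13572 gene rows, 261 had no count and 16 symbols turned into dates were restored through identifiers. Genes passing filterByExpr (minimum count 10) numbered 2076, with 80.6% of counts, and were tested with edgeR 4.0.16 (quasi-likelihood F-test, TMM, two-sided, Benjamini-Hochberg adjustment, threshold 0.05). CPM are counts scaled to 1000000 by the TMM-adjusted totals over tested genes. The common biological coefficient of variation was 21.8%. Standard errors were derived from the log2 fold change and F statistic of the same fit, and 95% intervals from these. The fit was tried on simulated counts with the same dispersion for all genes, which did not check standard errors or intervals. Precision follows the counts: a gene with few counts has a wide interval, and counting spread covers counting error only.

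The 10 genes, 6 lists and markers were chosen with earlier results of these data known. All 10 genes are named, and of each list every called gene or otherwise the 2 with the smallest p, except 1 called gene that is not reported here. From the class I and maturation lists called genes are given, and Cd83, Cd86 and Ccr7 were named after their values were seen. Gene names for likeness are the 8 highest. Coordinates are from GENCODE M21 and promoters from RefSeq, GRCm38.p6. Alternatives were other scalings, filters, DESeq2 1.42.0, limma-voom (limma 3.58.1) over pools, robust dispersion, the mouse number as a block, leaving out mice, pools or mitochondrial and ribosomal RNA rows. The ratio of H2-Eb1 to H2-Ab1 was not among the planned ratios, and leaving out each mouse for it was added after seeing the data. R 4.3.3, Python 3.11.15 and matplotlib 3.10.9 were used.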

Additional observations from a re-analysis of the deposited data

Results flagged for a closer look

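In groups of 4 mice, 7 of 78 groups had a mouse far from the other 3 by Dixon's test at the 95% level. Chance flags about 1 in 20 groups. No explanation was tested for any of them.

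H2-DMb2 was lowest in PtgsKO mouse 2, at 83.0 CPM, and so was its share of the counts of the 10 genes, at 0.291%. This mouse had 2 pools and 7 H2-DMb2 counts. The same mouse was highest for the class I genes B2m, at 8754 CPM, and H2-K1, at 1744 CPM. Among control mice, mouse 1 had the lowest H2-Aa, at 7155 CPM, and the highest H2-Ab1 share of the 10 genes, at 19.9%. Control mouse 2 had the highest ratio of H2-Eb1 to H2-Ab1 counts, at 0.863, and 1 of its pools held 114 macrophage marker counts.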

How the results depend on the processing

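The call of Ctss was lost with total count scaling (log2 fold change −0.66, adjusted p = 0.0729 by edgeR), a minimum count of 20 (−0.69), the replicate block (−0.72, adjusted p = 0.0621 by edgeR) and without pools with markers of other cells (−0.59), and without 5 of the 8 mice in turn (−0.86 to −0.61). In those settings 0 of the 10 genes were called by edgeR (1, 2, 3 and 0 with an unadjusted p under 0.05), and 0 to 1 without a mouse. It held with DESeq2 (−0.73, adjusted p = 0.0466) and limma-voom (−0.74, adjusted p = 0.0209). No setting called any other of the 10. At a minimum count of 20 and without the pools with markers of other cells, H2-DMb2 was not tested.

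Log2 fold changes near 0 turned sign. H2-Ab1 was 0.042 with total count scaling and 0.012 from pools 2 and 3 alone. H2-DMa was −0.048 with upper quartile scaling, −0.028 with a minimum count of 5, −0.075 without pools with markers of other cells and −0.13 to 0.12 without a mouse. Ciita was −0.0065 with limma-voom, −0.36 without pools with markers of other cells and −0.080 to 0.22 without a mouse, and H2-Ob −0.43 to 0.07 without a mouse. The difference in the ratio of H2-Eb1 to H2-Ab1 counts was −0.0492 without pools with markers of other cells and −0.155 to −0.109 without a mouse. The median correlation of 0.64 among the 4 abundant genes was 0.65 with mouse means removed. The cause was not tested for any of these.

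Over all genes, 103 calls became 194 without a count filter, 57 with a minimum count of 20, 51 from pools 2 and 3, 27 without pools with markers of other cells and 56 to 111 without a mouse (56 without control mouse 2, 63 without control mouse 3). In the lists, 9 calls became 15, 5, 3 and 3 in the same settings and 2 to 16 without a mouse. The split of 56 higher and 47 lower genes was 45 and 67 with upper quartile scaling, 70 and 24 with total count scaling (where the median of all genes was 0.0935), 45 and 28 with the replicate block. Mouse numbers recur in both groups, but deviations of same-numbered mice correlated by −0.0866 to 0.0702 and 1 of 4 correlated best with its own number, so they were not treated as pairs. Depth limits H2-DMb2 and Ciita most, and tumours came from 1 melanoma line.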
